A study of Mus musculus with 12 samples.

Results

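Iron and 2-oxoglutarate dependent dioxygenases were examined at the transcript level in HT22 cells, which are hippocampal neuronal cells of the mouse kept as an immortalized line. The members were taken from a list of 52 gene symbols covering prolyl and lysyl hydroxylases, JmjC proteins, TET enzymes, the ALKBH family with Fto and some single enzymes. Of these, 48 were found by exact symbol among the 24343 uniquely named genes of the RNA-seq tables. The other 4 (Lepre1, Leprel1, Leprel2 and Jhdm1d) were absent under those symbols. RNA was profiled in 12 libraries, 3 biological replicates in each of 4 groups. Cells received a control siRNA (siControl) or a siRNA against Ncoa4 (siNCOA4), each by liposome-mediated transfection. Either culture was left at normal iron or treated with the iron chelator DFO (desferrioxamine) at 100 µM for 24 h (siControl+DFO and siNCOA4+DFO). All groups therefore share the line, the transfection and the serum-containing medium, and the knockdown rests on 1 siRNA.

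NCOA4 is the cargo receptor that carries ferritin to the lysosome, where stored iron is released. The dioxygenases examined here hold a ferrous iron at the active site and couple oxidation of a substrate to the decarboxylation of 2-oxoglutarate to succinate. Through this chemistry they hydroxylate prolines, lysines and asparagines in proteins, and they remove methyl groups from histones, DNA and RNA. The prolyl hydroxylases EGLN1 to EGLN3 mark hypoxia-inducible factor (HIF) alpha subunits for destruction, so that loss of oxygen or iron stabilises HIF. HIF binds short core motifs of hypoxia response elements, such as ACGTG. Several dioxygenase genes are themselves known HIF targets. The values below are transcript levels and carry no information on enzyme activity.

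Levels are in FPKM, which count the fragments of a gene per kilobase of its transcript, scaled to the size of the library. FPKM hold no total count, but the steps between low values place the 12 libraries within a 1.52-fold range of relative depth. Ncoa4 lay between 6.02 and 6.46 FPKM in siControl and between 7.52 and 8.70 FPKM in siControl+DFO. In the 6 libraries with Ncoa4 siRNA it lay between 0.770 and 1.57 FPKM, so every library fitted the siRNA part of its label. Ncoa4 was not used to check the DFO part. Of 10 neuronal markers, 8 were below 0.5 FPKM in every library. These included Map2, Rbfox3, Snap25 and Grin1, and Tubb3 held most of the list's summed level of 4.66 to 13.7 FPKM. The 5 fibroblast markers summed to between 1560 and 3240 FPKM, of which Vim alone held 1169 to 1662 FPKM. The other 4 fell past 2-fold with DFO in siControl cells, as did 7.76% of the 11924 genes tested. The astrocyte list of 4 genes summed to at most 3.26 FPKM and the oligodendrocyte list of 4 to at most 1.47 FPKM. The microglial list of 4 lay between 0.457 and 11.8 FPKM. Without DFO most of it was Tmem119, which was at most 2.01 FPKM in any library with DFO. P2ry12 and the oligodendrocyte gene Mag were at 0 in all libraries. Small RNA genes held 36.4% to 41.2% of the FPKM sum without DFO and 42.3% to 52.5% with DFO.

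Most of the dioxygenases were expressed. Of the 48 members, 43 reached 0.5 FPKM in at least 3 libraries and were tested. Of all 24343 uniquely named genes, 11924 did so. In siControl cells their mean level ran from 0.568 FPKM for Tet1 to 54.5 FPKM for P4ha1, with a median of 15.4 FPKM, and 29 were above 10 FPKM. The other 5 were listed at or near 0. Bbox1, which makes carnitine from gamma-butyrobetaine, was listed at 0 in all 12 libraries. Egln3 was listed at 0 in 11 libraries and at 0.108 FPKM in siNCOA4+DFO replicate 2. P4htm, Kdm4d and Phyh never passed 0.167, 0.130 and 0.196 FPKM.

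DFO moved the dioxygenases mostly upward. The test was that of limma on log2(FPKM + 0.1), a scale that understates the fold change of low genes, with Benjamini-Hochberg adjustment over all genes tested. A gene rose or fell where its adjusted p was below 0.05. In siControl cells 23 of the 43 tested members rose (53.5%) and 6 fell (14%), where 27.7% of all genes tested rose and 25.7% fell. Their median log2 fold change was 0.51, against -0.01 over all genes tested. Under the study's own rule, which adds a fold change above 2, 7 rose (16.3%) and 2 fell (4.65%), against 11.1% and 7.76% of all genes. In siNCOA4 cells, which share no library with the siControl comparison, DFO raised 22 members (51.2%) and lowered 5 (11.6%), against 23.1% and 19.6% of all genes. Past 2-fold, 9 rose (20.9%) and 1 fell (2.33%), against 7.59% and 3.83% of all genes. Because RNA came from whole cultures, fewer cells making a transcript and less of it per cell cannot be told apart. After rescaling each library to its FPKM sum without small RNA genes, 22 members rose and 6 fell in siControl cells, and 22 rose and 5 fell in siNCOA4 cells. Of the 11931 genes tested after this rescaling, 3100 rose and 3286 fell in siControl cells. In siNCOA4 cells 2789 of them rose and 2214 fell. The summed level of the fibroblast markers ran from 2828 to 3236 FPKM in siControl, from 1800 to 1869 FPKM in siControl+DFO, from 2102 to 2257 FPKM in siNCOA4 and from 1563 to 1707 FPKM in siNCOA4+DFO. The part of these shifts in the members' changes was not tested.

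**Figure D1:**
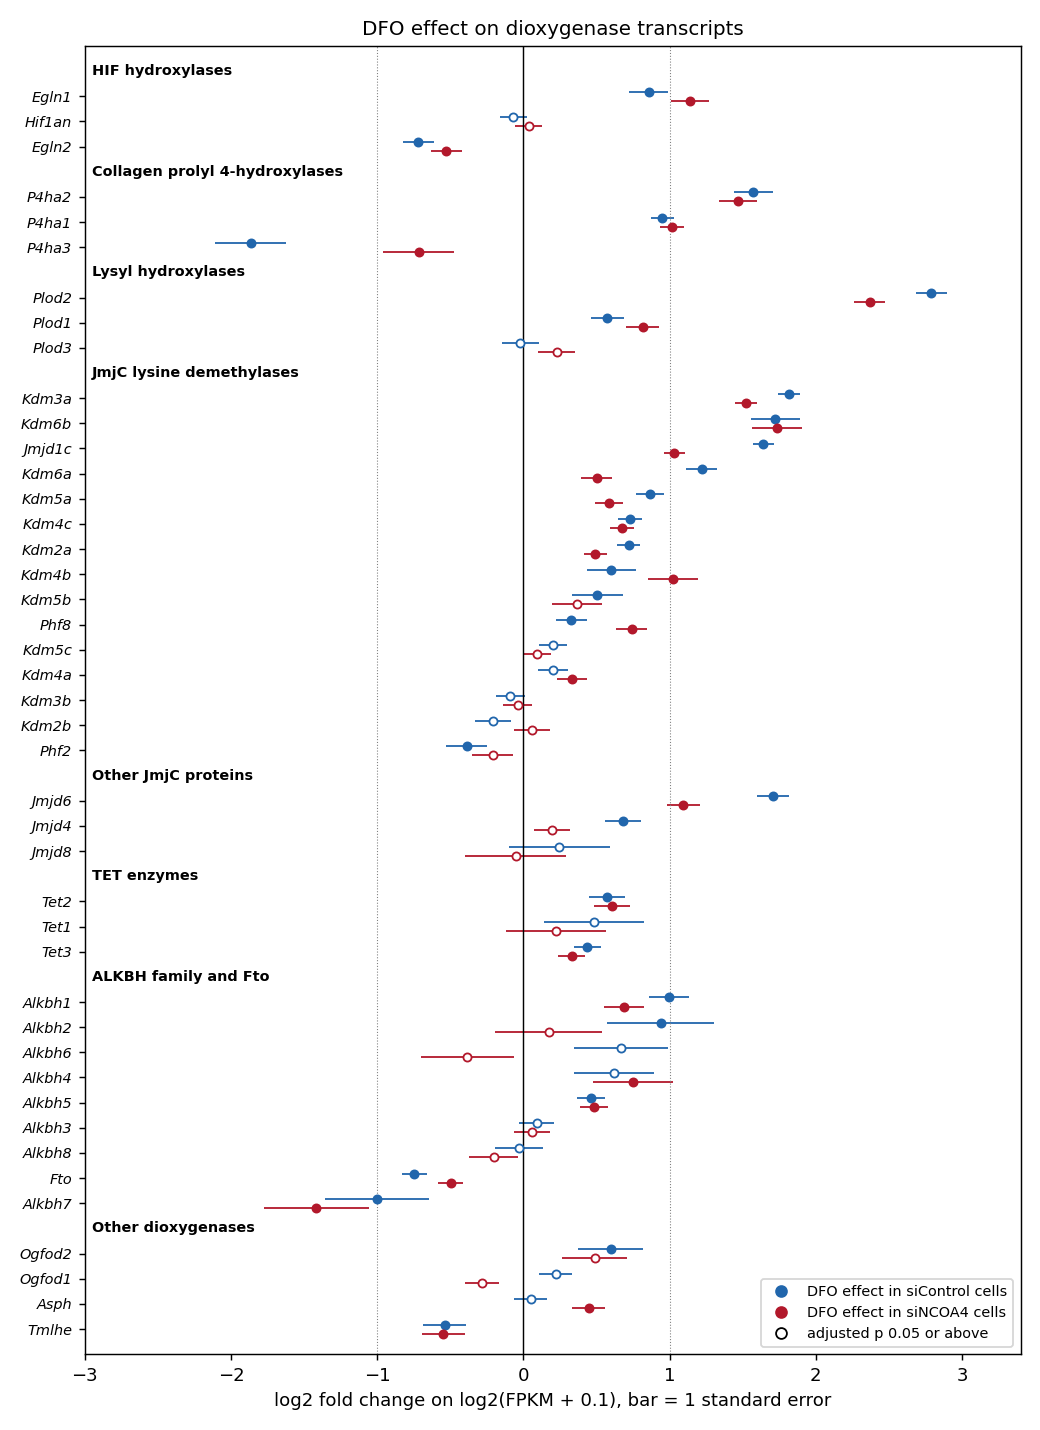
Log2 fold change with DFO for the 43 tested members, grouped by family, in siControl cells (blue) and siNCOA4 cells (red). Each bar is 1 standard error, open circles mark an adjusted p of 0.05 or above, and dotted lines mark 2-fold. Most filled circles lie to the right of 0, Plod2 lies farthest right in both, and P4ha3 lies farthest left in siControl cells at -1.87.

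Both DFO comparisons were set side by side. The sign of the change was the same in siControl and siNCOA4 cells for 37 of 43 members (86%), against 82.4% of all genes tested. Past the test in both were 24 members (55.8%), against 35.4% of all genes. Of these, 19 rose in both (44.2%) and 5 fell in both (11.6%), against 19.6% and 15.7% of all genes, and 0 went in opposite directions. The log2 fold changes correlated at r = 0.885 across the members and at r = 0.747 across all genes, a description over genes, which are not independent replicates. Another 5 members passed in siControl cells alone and 3 in siNCOA4 cells alone, which is not a test of a difference. The 7 members past 2-fold in both were P4ha2, Plod2, Kdm3a, Jmjd1c, Kdm6b and Jmjd6, which rose, and Alkbh7, which fell.

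The HIF hydroxylases split by gene. Egln1 (PHD2) is regarded as the main oxygen-sensing prolyl hydroxylase of HIF alpha. Its FPKM was 33.5, 26.4 and 24.8 in siControl and 46.9, 50 and 55.6 in siControl+DFO. In siNCOA4 it was 23.7, 17.6 and 19.0, and in siNCOA4+DFO it was 40.7, 45.6 and 46.1. Every DFO library lay above every library without DFO. Egln1 rose 1.81-fold in siControl cells (log2 0.86, standard error 0.13, limma adjusted p = 0.000154) and 2.21-fold in siNCOA4 cells (log2 1.14, limma adjusted p = 2.66e-05).

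Egln2 (PHD1), the prolyl hydroxylase with the nuclear location, went the other way. It stood at 22.7, 24.3 and 24.6 FPKM in siControl, at 21.5, 18.9 and 23.9 in siNCOA4, at 14.9, 15.5 and 13.0 in siControl+DFO and at 13.8, 15.8 and 14.8 in siNCOA4+DFO. The highest DFO library was below the lowest library without DFO. Egln2 fell by 0.72 log2 units in siControl cells (1.65-fold, limma adjusted p = 0.000103) and by 0.53 in siNCOA4 cells (1.44-fold, limma adjusted p = 0.0015). Hif1an (FIH), which hydroxylates an asparagine of HIF alpha and so blocks its coactivator, was at 16.3, 15.4 and 14.2 FPKM in siControl and at 14.3, 16.0 and 13.6 in siControl+DFO. It was at 16.7, 18.4 and 16.9 in siNCOA4 and at 16.9, 18.7 and 17.8 in siNCOA4+DFO. These ranges overlapped between cells with and without DFO. The DFO difference of Hif1an was -0.07 in siControl cells (95% interval -0.27 to 0.13) and 0.03 in siNCOA4 cells (-0.17 to 0.24), limma adjusted p = 0.551 and 0.789.

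Promoter windows were read from RefSeq on GRCm38.p6, the build of the deposited values, as 300 bases running from 250 before to 50 after an annotated start. Windows were found for 40 of the 48 members. The motif ACGTG was searched on both strands, so that it can also appear as CACGT, and the palindrome CACGTG, which holds both, was counted once. It occurred in at least 1 window of 14 of 40 members (35%), against 5886 of 27025 genes with a window (21.8%). These 27025 genes include many that were not tested for expression here, and a gene with several windows had more places for a match. Of the members that rose with DFO in siControl cells, 9 of 18 with a window held it (50%). Of those that fell it was 2 of 5 (40%), and of those that did neither 2 of 12 (16.7%). The wider core NCGTG was in windows of 33 of 40 members (82.5%) and of 64.2% of all genes. A match is a run of letters and not a bound site, and these shares were not tested.

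The windows of Egln1 and Egln2 are shown because these paralogs moved in opposite directions and both hold the motif, which is in capitals, with all else in lower case. The Egln1 window lies at chr8:124949205-124949504 on the minus strand, with a match that begins 68 bases before the start. The Egln2 window lies at chr7:27166753-27167052 on the minus strand, with matches 48 and 4 bases before the start. A further Egln2 window held no ACGTG, though it held the wider core NCGTG. Both are written 5′ to 3′ along the gene.
Egln1: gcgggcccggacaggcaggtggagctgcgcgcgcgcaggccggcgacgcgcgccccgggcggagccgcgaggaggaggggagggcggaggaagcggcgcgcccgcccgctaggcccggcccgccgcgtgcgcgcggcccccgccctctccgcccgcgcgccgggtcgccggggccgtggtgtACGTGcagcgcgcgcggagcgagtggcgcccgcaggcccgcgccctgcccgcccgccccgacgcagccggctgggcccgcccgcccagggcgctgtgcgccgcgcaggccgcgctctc
Egln2: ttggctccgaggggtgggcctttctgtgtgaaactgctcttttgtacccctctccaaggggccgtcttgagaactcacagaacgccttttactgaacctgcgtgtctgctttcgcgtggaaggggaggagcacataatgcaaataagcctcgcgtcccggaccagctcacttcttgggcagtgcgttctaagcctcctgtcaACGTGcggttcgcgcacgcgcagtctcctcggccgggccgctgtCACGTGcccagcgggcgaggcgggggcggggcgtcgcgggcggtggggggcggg

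**Figure D2:**
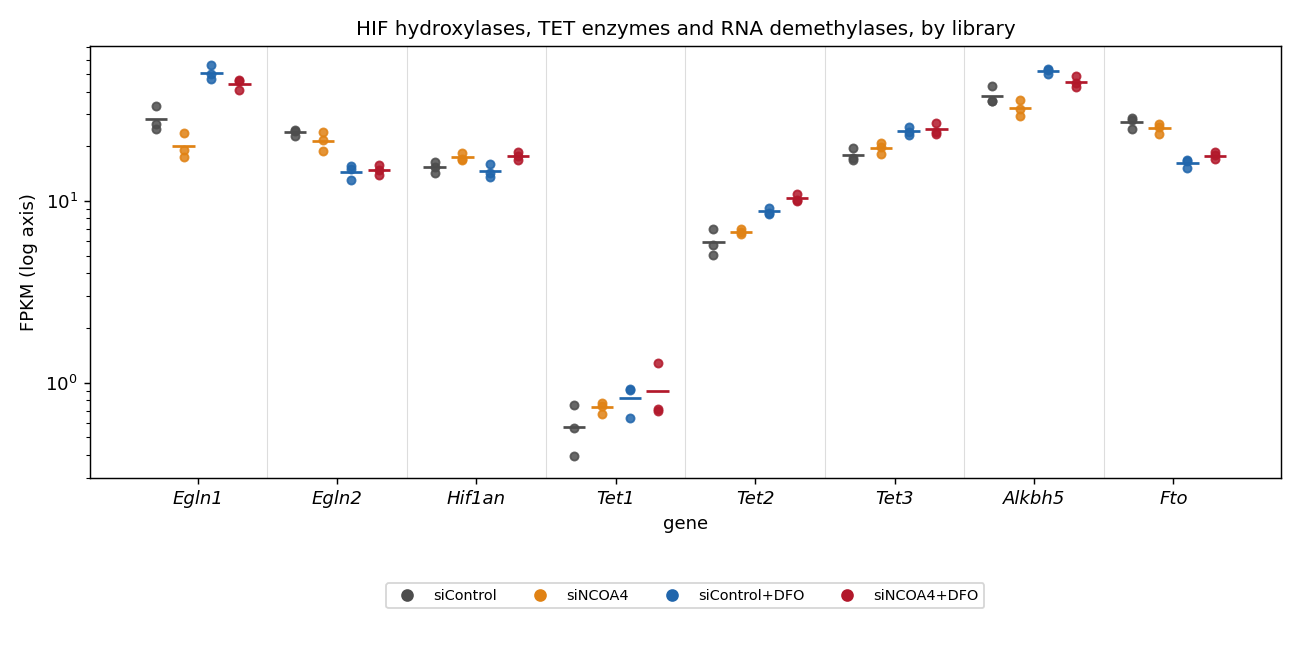
FPKM in each library on a log axis for Egln1, Egln2, Hif1an, Tet1, Tet2, Tet3, Alkbh5 and Fto, with 1 point per library, the mean as a bar and the 4 groups in colour. The DFO points of Egln1, Tet2 and Tet3 sit above all points without DFO, those of Egln2 and Fto sit below, and those of Hif1an and Tet1 overlap. Those of Alkbh5 sit above the points of their own siRNA group.

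Collagen prolyl 4-hydroxylases form the 4-hydroxyproline that holds the collagen triple helix together, as tetramers of catalytic alpha subunits with P4HB. Of the 3 catalytic genes, P4ha1 and P4ha2 rose with DFO and P4ha3 fell. P4ha1 was at 60.3, 51.9 and 51.1 FPKM in siControl and at 98.7, 107 and 110.1 in siControl+DFO. It was at 52.4, 47.6 and 49.4 in siNCOA4 and at 95.6, 107 and 99.5 in siNCOA4+DFO. The DFO and non-DFO libraries did not overlap, and the rise was 1.93-fold in siControl cells (log2 0.95, limma adjusted p = 1.38e-06) and 2.02-fold in siNCOA4 cells (log2 1.02, limma adjusted p = 1.84e-06).

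P4ha2 moved further. Its FPKM was 51.8, 38.1 and 41.6 in siControl, 46.3, 37.1 and 37.5 in siNCOA4, 114, 142 and 134 in siControl+DFO and 112, 122 and 100.0 in siNCOA4+DFO. Its lowest DFO library was well above its highest library without DFO. The rise was 2.97-fold in siControl cells (log2 1.57, standard error 0.13, limma adjusted p = 1.13e-06) and 2.77-fold in siNCOA4 cells (log2 1.47, limma adjusted p = 4.01e-06). P4ha3, the least expressed of the family, was at 4.42, 4.93 and 4.92 FPKM in siControl and at 0.974, 1.89 and 1.00 in siControl+DFO. It was at 4.17, 3.27 and 3.14 FPKM in siNCOA4 and at 2.39, 1.84 and 2.07 in siNCOA4+DFO. All 6 DFO libraries were below the 6 others. It fell by 1.87 log2 units in siControl cells (3.64-fold, limma adjusted p = 4.32e-05) and by 0.72 in siNCOA4 cells (limma adjusted p = 0.0317). The second call was lost without siNCOA4 replicates 1 or 2 or siNCOA4+DFO replicates 2 or 3, with a limma adjusted p of at most 0.116. The difference between both falls was 1.15 log2 units (limma adjusted p = 0.103). Without siControl+DFO replicate 2, its highest library, that difference was 1.44 and passed the test.

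P4ha1 and P4ha2, which rose together, both held the motif. The P4ha1 window is chr10:59323046-59323345 on the plus strand, with a match on the opposite strand 16 bases before the start. The P4ha2 window is chr11:54100674-54100973 on the plus strand, with matches 78 bases before and 11 bases after the start. The P4ha3 window held no ACGTG, though it held the wider core NCGTG.
P4ha1: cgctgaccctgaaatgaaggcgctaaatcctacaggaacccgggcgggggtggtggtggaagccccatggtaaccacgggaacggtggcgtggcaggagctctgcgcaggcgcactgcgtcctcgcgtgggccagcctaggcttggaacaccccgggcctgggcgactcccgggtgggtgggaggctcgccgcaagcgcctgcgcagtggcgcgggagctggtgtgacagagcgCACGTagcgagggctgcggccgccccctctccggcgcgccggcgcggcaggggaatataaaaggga
P4ha2: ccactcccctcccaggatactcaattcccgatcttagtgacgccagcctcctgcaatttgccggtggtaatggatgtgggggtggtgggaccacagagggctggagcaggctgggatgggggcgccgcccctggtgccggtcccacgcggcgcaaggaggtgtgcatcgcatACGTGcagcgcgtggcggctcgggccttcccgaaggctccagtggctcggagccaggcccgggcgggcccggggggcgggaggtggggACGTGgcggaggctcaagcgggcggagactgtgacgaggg

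Lysyl hydroxylases prepare collagen lysines for glycosylation and cross-linking, and PLOD2 acts on the telopeptides. Plod2 showed the largest DFO change of all 43 tested members. Its FPKM was 17.6, 13.6 and 15.1 in siControl, 23.1, 26.9 and 22.5 in siNCOA4, 100.2, 103 and 118 in siControl+DFO and 133, 126 and 116 in siNCOA4+DFO. The 4 groups separated into low libraries without DFO and high libraries with it. The rise was 6.92-fold in siControl cells (log2 2.79, standard error 0.11, limma adjusted p = 3.04e-09) and 5.16-fold in siNCOA4 cells (log2 2.37, limma adjusted p = 2.95e-08). Plod1 rose from 27.3 ± 1.39 to 40.8 ± 5.41 FPKM in siControl cells (mean ± SD, n = 3) and from 18.4 ± 2.50 to 32.2 ± 0.572 FPKM in siNCOA4 cells. Its log2 changes were 0.57 and 0.82 (limma adjusted p = 0.00106 and 0.000114). Plod3, which also carries glycosyltransferase activity, did not pass in either (log2 -0.02 and 0.23, limma adjusted p = 0.9 and 0.168). No Plod2 window was in the promoter table.

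JmjC lysine demethylases remove methyl groups from histone lysines. Of 15 tested, 10 rose with DFO in siControl cells and 1 fell, where 27.7% of all genes rose and 25.7% fell. In siNCOA4 cells 10 rose and 0 fell, where 23.1% and 19.6% of all genes did. The enzymes acting on histone H3 lysine 9 and their relatives were led by Kdm3a, which removes mono- and dimethyl marks. Kdm3a was at 21.5, 20.3 and 18.8 FPKM in siControl, at 21.3, 21.3 and 20.6 in siNCOA4, at 74.0, 73.4 and 66.9 in siControl+DFO and at 60.1, 64.2 and 58.0 in siNCOA4+DFO. The 6 libraries without DFO lay within a narrow band well below the 6 others. It rose 3.52-fold in siControl cells (log2 1.82, standard error 0.07, limma adjusted p = 3.83e-09) and 2.87-fold in siNCOA4 cells (log2 1.52, limma adjusted p = 4.64e-08).

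Jmjd1c, a relative of Kdm3a, was at 30.2, 26.6 and 26.6 FPKM in siControl, at 30.3, 30.2 and 30.0 in siNCOA4, at 93.5, 85.7 and 81.7 in siControl+DFO and at 63.6, 61.6 and 60.2 in siNCOA4+DFO. Both DFO groups were above both others, and the 2 DFO groups did not overlap. It rose 3.12-fold in siControl cells (log2 1.64, limma adjusted p = 7.73e-09) and 2.05-fold in siNCOA4 cells (log2 1.03, limma adjusted p = 6.99e-07). Kdm3b, the remaining relative, was near 17.3 ± 2.53 FPKM in siControl and 16.1 ± 0.438 in siControl+DFO, and did not pass in either background (log2 -0.09 and -0.04, limma adjusted p = 0.479 and 0.785). None of the windows of Kdm3a and Jmjd1c held ACGTG. The wider core NCGTG occurred in windows of both genes, as it did in those of 64.2% of all genes with a window.

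The KDM4 enzymes demethylate trimethylated lysine 9 and lysine 36 of histone H3. Kdm4c rose from 32.1 ± 3.28 to 53.0 ± 1.38 FPKM in siControl cells and from 36.6 ± 1.78 to 58.5 ± 3.27 FPKM in siNCOA4 cells (log2 0.73 and 0.68, limma adjusted p = 1.27e-05 and 4.02e-05). Kdm4b was at 17.0, 12.1 and 9.94 FPKM in siControl, at 9.74, 7.66 and 8.35 in siNCOA4, at 19.7, 18.7 and 19.6 in siControl+DFO and at 19.8, 17.2 and 15.6 in siNCOA4+DFO. Its siControl libraries were the most spread, and siControl replicate 1 lay inside the range of siNCOA4+DFO. Kdm4b rose 1.52-fold in siControl cells (log2 0.60, limma adjusted p = 0.00989) and 2.03-fold in siNCOA4 cells (log2 1.02, limma adjusted p = 0.000419). Kdm4a passed in siNCOA4 cells (log2 0.33, limma adjusted p = 0.0209) and not in siControl cells (log2 0.20, limma adjusted p = 0.116). The former call was lost without siNCOA4 replicates 2 or 3 or siNCOA4+DFO replicate 3, with a limma adjusted p of at most 0.0902.

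Kdm6a (UTX) and Kdm6b (JMJD3) remove the repressive trimethyl mark of histone H3 lysine 27. Kdm6b was at 16.3, 11.9 and 10.3 FPKM in siControl, at 8.81, 6.90 and 8.12 in siNCOA4, at 39.0, 46.8 and 40.0 in siControl+DFO and at 32.0, 25.3 and 23.2 in siNCOA4+DFO. The 4 groups did not overlap, in the order siNCOA4, siControl, siNCOA4+DFO and siControl+DFO. DFO raised it 3.30-fold in siControl cells (log2 1.72, standard error 0.17, limma adjusted p = 4.26e-06) and 3.33-fold in siNCOA4 cells (log2 1.74, limma adjusted p = 8.06e-06). Kdm6a was at 7.41, 7.33 and 7.14 FPKM in siControl, at 9.18, 10.8 and 8.41 in siNCOA4, at 15.9, 17.3 and 18.1 in siControl+DFO and at 14.4, 13.2 and 12.6 in siNCOA4+DFO. These groups did not overlap either, and siControl was the lowest. The rise was 2.33-fold in siControl cells (log2 1.22, standard error 0.11, limma adjusted p = 1.81e-06) and 1.42-fold in siNCOA4 cells (log2 0.50, limma adjusted p = 0.00264).

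The KDM5 enzymes demethylate lysine 4 of histone H3, an active mark, and the KDM2 enzymes act on lysine 36. Kdm5a increased from 18.1 ± 2.12 to 32.9 ± 1.52 FPKM in siControl cells (log2 0.87, limma adjusted p = 1.07e-05), and its log2 change in siNCOA4 cells was 0.58 (limma adjusted p = 0.000382). Kdm2a increased from 31.5 ± 2.28 to 51.8 ± 1.81 FPKM in siControl cells (log2 0.72, limma adjusted p = 9.21e-06), and by 0.49 log2 units in siNCOA4 cells (limma adjusted p = 0.000301). Kdm5b passed only in siControl cells (log2 0.51, limma adjusted p = 0.0261), a call lost without siControl replicates 1 or 2 or siControl+DFO replicates 2 or 3 (limma adjusted p at most 0.0901). Kdm5c and Kdm2b did not pass in either background. Phf8, a demethylase with a PHD finger, rose in both (log2 0.33 and 0.74, limma adjusted p = 0.0198 and 0.000136), the former call being lost without siControl replicates 2 or 3 or siControl+DFO replicate 2 (at most 0.0687). Phf2, its relative, fell in siControl cells (log2 -0.39, limma adjusted p = 0.0347). That call was lost without siControl replicate 1 or siControl+DFO replicates 1 or 2 (at most 0.128), and Phf2 did not pass in siNCOA4 cells.

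**Figure D3:**
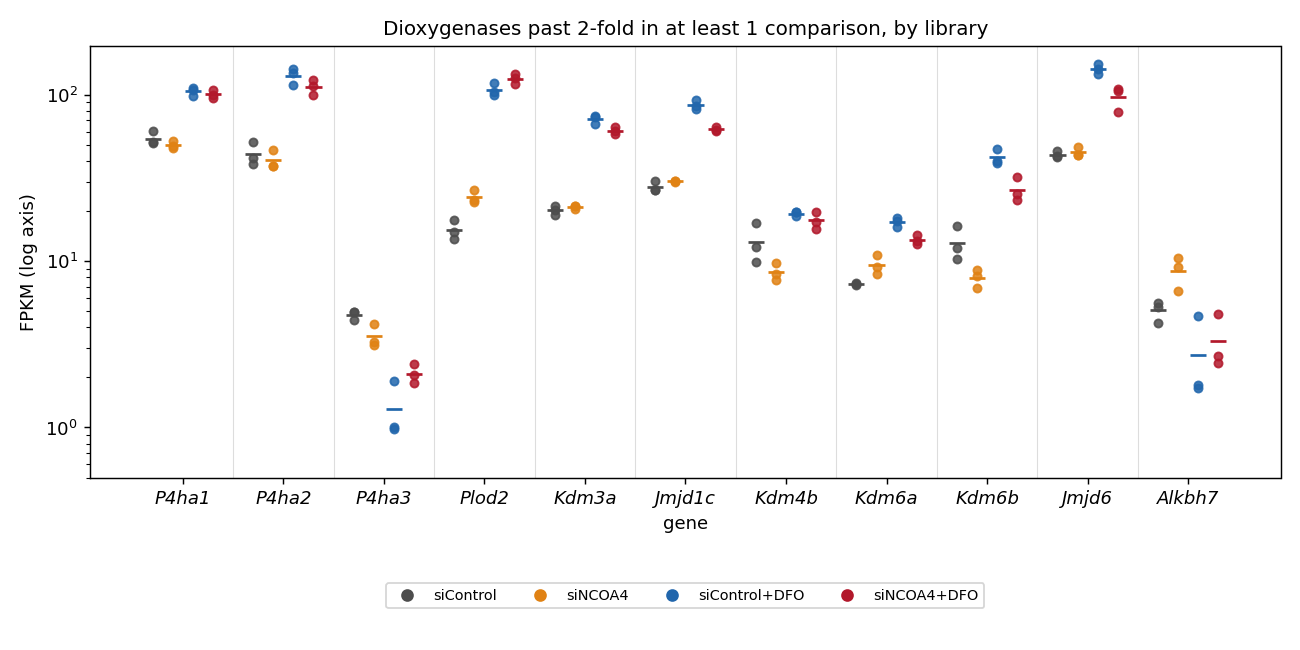
FPKM in each library on a log axis for the 11 members other than Egln1 that passed 2-fold in at least 1 comparison, with 1 point per library, the mean as a bar and the 4 groups in colour. The DFO points lie above the others for all but P4ha3 and Alkbh7, and for Kdm4b siControl replicate 1 lies among them. For Kdm3a, Jmjd1c, Kdm6a, Kdm6b and Jmjd6 the siNCOA4+DFO points lie below the siControl+DFO points, though Kdm3a did not pass the test of that comparison.

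Jmjd6, a JmjC protein reported to hydroxylate lysines of splicing factors, was among the most abundant members. Its FPKM was 45.7, 42.0 and 42.8 in siControl, 48.6, 43.6 and 43.2 in siNCOA4, 142, 153 and 133 in siControl+DFO and 108, 105 and 78.9 in siNCOA4+DFO. The siControl and siNCOA4 libraries overlapped, and the 2 DFO groups lay above them without overlapping each other. The rise was 3.26-fold in siControl cells (log2 1.71, standard error 0.11, limma adjusted p = 1.31e-07) and 2.14-fold in siNCOA4 cells (log2 1.09, limma adjusted p = 1e-05). Jmjd4 rose in siControl cells from 5.49 ± 0.334 to 8.85 ± 0.441 FPKM (log2 0.68, limma adjusted p = 0.000523) and not past the test in siNCOA4 cells (log2 0.20, limma adjusted p = 0.217). Jmjd8 stayed between 0.861 and 2.72 FPKM in all libraries and did not pass.

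Windows of Jmjd6 and Kdm6a are shown as further members that rose past 2-fold in siControl cells and held the motif. The Jmjd6 window is chr11:116843400-116843699 on the minus strand, with a match on the opposite strand 228 bases before the start. The Kdm6a window is chrX:18162325-18162624 on the plus strand, with matches 159 and 27 bases before the start. No Kdm6b window was in the promoter table.
Jmjd6: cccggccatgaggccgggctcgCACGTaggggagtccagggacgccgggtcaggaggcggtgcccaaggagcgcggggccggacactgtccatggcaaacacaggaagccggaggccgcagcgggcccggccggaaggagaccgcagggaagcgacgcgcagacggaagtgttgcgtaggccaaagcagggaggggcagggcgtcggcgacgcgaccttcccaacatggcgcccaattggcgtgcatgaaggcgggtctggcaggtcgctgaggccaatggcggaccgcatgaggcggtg
Kdm6a: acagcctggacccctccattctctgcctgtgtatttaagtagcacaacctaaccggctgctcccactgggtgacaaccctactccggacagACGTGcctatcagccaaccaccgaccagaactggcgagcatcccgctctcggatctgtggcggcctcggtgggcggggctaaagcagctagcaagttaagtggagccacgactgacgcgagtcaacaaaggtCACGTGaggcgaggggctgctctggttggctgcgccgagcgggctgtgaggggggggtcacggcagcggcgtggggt

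The TET enzymes oxidise 5-methylcytosine in DNA as a step of demethylation. Tet2 was at 7.02, 5.68 and 5.03 FPKM in siControl, at 6.72, 6.97 and 6.58 in siNCOA4, at 8.62, 8.51 and 9.16 in siControl+DFO and at 10.00, 10.97 and 10.1 in siNCOA4+DFO. Tet3 was at 19.5, 16.8 and 17.3 FPKM in siControl, at 20.9, 18.2 and 19.9 in siNCOA4, at 22.9, 24.1 and 25.6 in siControl+DFO and at 27.0, 24.0 and 23.3 in siNCOA4+DFO. For both genes all DFO libraries were above all others. Tet2 rose 1.49-fold and 1.52-fold (log2 0.57 and 0.61, limma adjusted p = 0.00205 and 0.00189) in siControl and siNCOA4 cells. Tet3 rose 1.35-fold and 1.26-fold (log2 0.44 and 0.33, limma adjusted p = 0.00169 and 0.012), and the latter call was lost without siNCOA4 replicate 2 or siNCOA4+DFO replicate 1 (at most 0.0543). Tet1 was hardly expressed, at 0.750, 0.393 and 0.560 FPKM in siControl and at 0.777, 0.744 and 0.668 in siNCOA4. With DFO it was at 0.906, 0.638 and 0.916 FPKM in siControl cells and at 0.718, 0.701 and 1.29 in siNCOA4 cells. These values overlapped, and its 95% interval of the DFO log2 change was -0.26 to 1.23 in siControl cells (limma adjusted p = 0.255).

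The ALKBH family and Fto demethylate or hydroxylate DNA, RNA and proteins. The RNA demethylases of N6-methyladenosine moved in opposite directions. Fto fell from 27.1 ± 1.93 to 16.1 ± 0.898 FPKM with DFO in siControl cells (log2 -0.75, limma adjusted p = 1.44e-05) and from 25.1 ± 1.63 to 17.7 ± 0.789 FPKM in siNCOA4 cells (log2 -0.50, limma adjusted p = 0.000545). Alkbh5 rose from 37.8 ± 4.16 to 51.9 ± 1.73 FPKM in siControl cells (log2 0.46, limma adjusted p = 0.00161) and from 32.3 ± 3.31 to 45.1 ± 3.19 FPKM in siNCOA4 cells (log2 0.48, limma adjusted p = 0.00163). Alkbh1 rose from 10.8 ± 1.41 to 21.6 ± 2.23 FPKM in siControl cells (log2 0.99, limma adjusted p = 7.09e-05), the largest rise of this family, and by 0.69 log2 units in siNCOA4 cells (limma adjusted p = 0.00162).

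Alkbh7, a mitochondrial member linked to programmed necrosis, was at 4.2, 5.59 and 5.33 FPKM in siControl, at 6.64, 10.5 and 9.17 in siNCOA4, at 4.69, 1.73 and 1.81 in siControl+DFO and at 4.81, 2.43 and 2.70 in siNCOA4+DFO. Replicate 1 of each DFO group was higher than its 2 partners, and siControl+DFO replicate 1 lay inside the siControl range. Alkbh7 fell by 1.00 log2 units in siControl cells (2.00-fold, standard error 0.36, limma adjusted p = 0.0324), and the limma adjusted p rose to at most 0.125 without siControl replicates 2 or 3 or siControl+DFO replicates 2 or 3. In siNCOA4 cells it fell by 1.42 log2 units (2.67-fold, limma adjusted p = 0.00685). Alkbh2, a DNA repair enzyme, passed in siControl cells (log2 0.94, limma adjusted p = 0.0467) but lost the call without any of 7 of the 12 libraries, with a limma adjusted p of at most 0.158. Alkbh4 passed in siNCOA4 cells (log2 0.75, limma adjusted p = 0.0437) and lost the call without any of 6 libraries (at most 0.174). Alkbh3, Alkbh6 and Alkbh8 did not pass in either background.

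Among the single enzymes, Tmlhe, the first enzyme of carnitine synthesis, fell in both backgrounds (log2 -0.54 and -0.55, limma adjusted p = 0.0082 and 0.00975). Asph, which hydroxylates aspartate and asparagine in EGF-like domains, rose in siNCOA4 cells (log2 0.45, limma adjusted p = 0.00743) and stood at log2 0.05 in siControl cells (limma adjusted p = 0.741). Ogfod2 rose in siControl cells (log2 0.60, limma adjusted p = 0.0392), a call lost without siControl replicates 1 or 3, siControl+DFO replicates 1 or 3 or siNCOA4+DFO replicate 2 (at most 0.138). Ogfod1, which hydroxylates a ribosomal protein, passed with DFO in neither.

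The Ncoa4 knockdown moved few of the dioxygenases. At normal iron 3 of 43 were higher (6.98%) and 4 lower (9.3%) in siNCOA4 than in siControl, against 4.52% and 7.21% of all genes tested, and 0 passed 2-fold, against 1.78% of all genes in either direction. By limma 11 members (25.6%) had an unadjusted p below 0.05, as had 26.2% of all genes. The summed fibroblast markers were lower in siNCOA4 (2102 to 2257 FPKM) than in siControl (2828 to 3236 FPKM), and their part in these counts was not tested. After rescaling without small RNA genes 4 members were higher, with Jmjd4 added, and 2 lower, and the share of calls over all genes that were higher went from 38.5% to 60.3%. The calls of Egln1 and Kdm4b were lost there and with quantile scaling. The counts depended on single libraries. The higher count was 1 without siControl replicate 1 or 3 or siNCOA4 replicate 2, and the lower count was 1 without siControl replicate 1 or 2 or siNCOA4 replicate 2 or 3.

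Plod2 rose 1.57-fold in siNCOA4 (log2 0.65, standard error 0.11, limma adjusted p = 0.00253) and Plod1 fell by 0.57 log2 units (1.49-fold, limma adjusted p = 0.00692). These related lysyl hydroxylases went in opposite directions, with no overlap of the groups, and both calls stayed past the test when any 1 library was left out. Egln1 was lower by 0.49 log2 units (limma adjusted p = 0.0322), Kdm6b by 0.66 (limma adjusted p = 0.026) and Kdm4b by 0.57 (limma adjusted p = 0.0499). In Egln1, Kdm6b and Kdm4b alike, siControl replicate 1 was the highest siControl library. Kdm6a was higher by 0.37 (limma adjusted p = 0.048) and Ogfod1 by 0.44 (limma adjusted p = 0.0273). Each of the last 5 calls was lost without siControl replicate 1. The largest adjusted p without any 1 library was 0.128 for Egln1, 0.104 for Kdm6b, 0.166 for Kdm4b, 0.18 for Kdm6a and 0.091 for Ogfod1.

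With DFO present, 0 of 43 members were higher in siNCOA4+DFO than in siControl+DFO and 5 were lower (11.6%), against 6.22% and 10.2% of all genes tested. The study reports altered cell shape and lower viability for the combined treatment, and no viability loss with either alone. The part of this in the differences was not tested. By limma 13 (30.2%) had an unadjusted p below 0.05, as had 32.2% of all genes, and 0 passed 2-fold, against 2.09% of all genes. The 5 were the demethylases Kdm2a, Jmjd1c, Kdm6a and Kdm6b and the hydroxylase Jmjd6. Jmjd6 was lower by 0.56 log2 units (1.48-fold, limma adjusted p = 0.00566) and Jmjd1c by 0.49 (1.40-fold, limma adjusted p = 0.00134). Kdm2a was lower by 0.37 (limma adjusted p = 0.00799), Kdm6b by 0.65 (limma adjusted p = 0.0224) and Kdm6a by 0.35 (limma adjusted p = 0.0443). All 5 had risen with DFO in both backgrounds, comparisons that share the siControl+DFO or siNCOA4+DFO libraries with this one. In each the siNCOA4+DFO and siControl+DFO libraries did not overlap, which a choice of genes by this same difference favours. Small RNA genes held 48.2% to 52.5% of the FPKM sum in siNCOA4+DFO and 42.3% to 46.1% in siControl+DFO. Rescaling each library to its sum without them raised the median log2 change of all genes by 0.13, and the share of calls over all genes that were higher went from 37.8% to 68.7% (50.6% with quantile scaling). After it 2 members were lower, Jmjd1c at -0.36 and Jmjd6 at -0.43, and 4 were higher, Plod2, Hif1an, P4ha3 and Phf8. The Kdm2a call was lost with this rescaling and with quantile scaling (limma adjusted p at most 0.0805). The Kdm6b call was lost with the rescaling and the Kdm6a call with both. The lower count was 3 without siControl+DFO replicate 2 or siNCOA4+DFO replicate 3, and the higher count was 2 without siControl+DFO replicate 2. The Kdm6a call was lost without any of 8 libraries (limma adjusted p at most 0.126) and the Kdm6b call without siControl+DFO replicate 2 or siNCOA4+DFO replicates 2 or 3 (at most 0.0864). Leaving out siControl+DFO replicate 2 or 3 or siNCOA4+DFO replicate 2 brought 1 member past 2-fold.

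**Figure D4:**
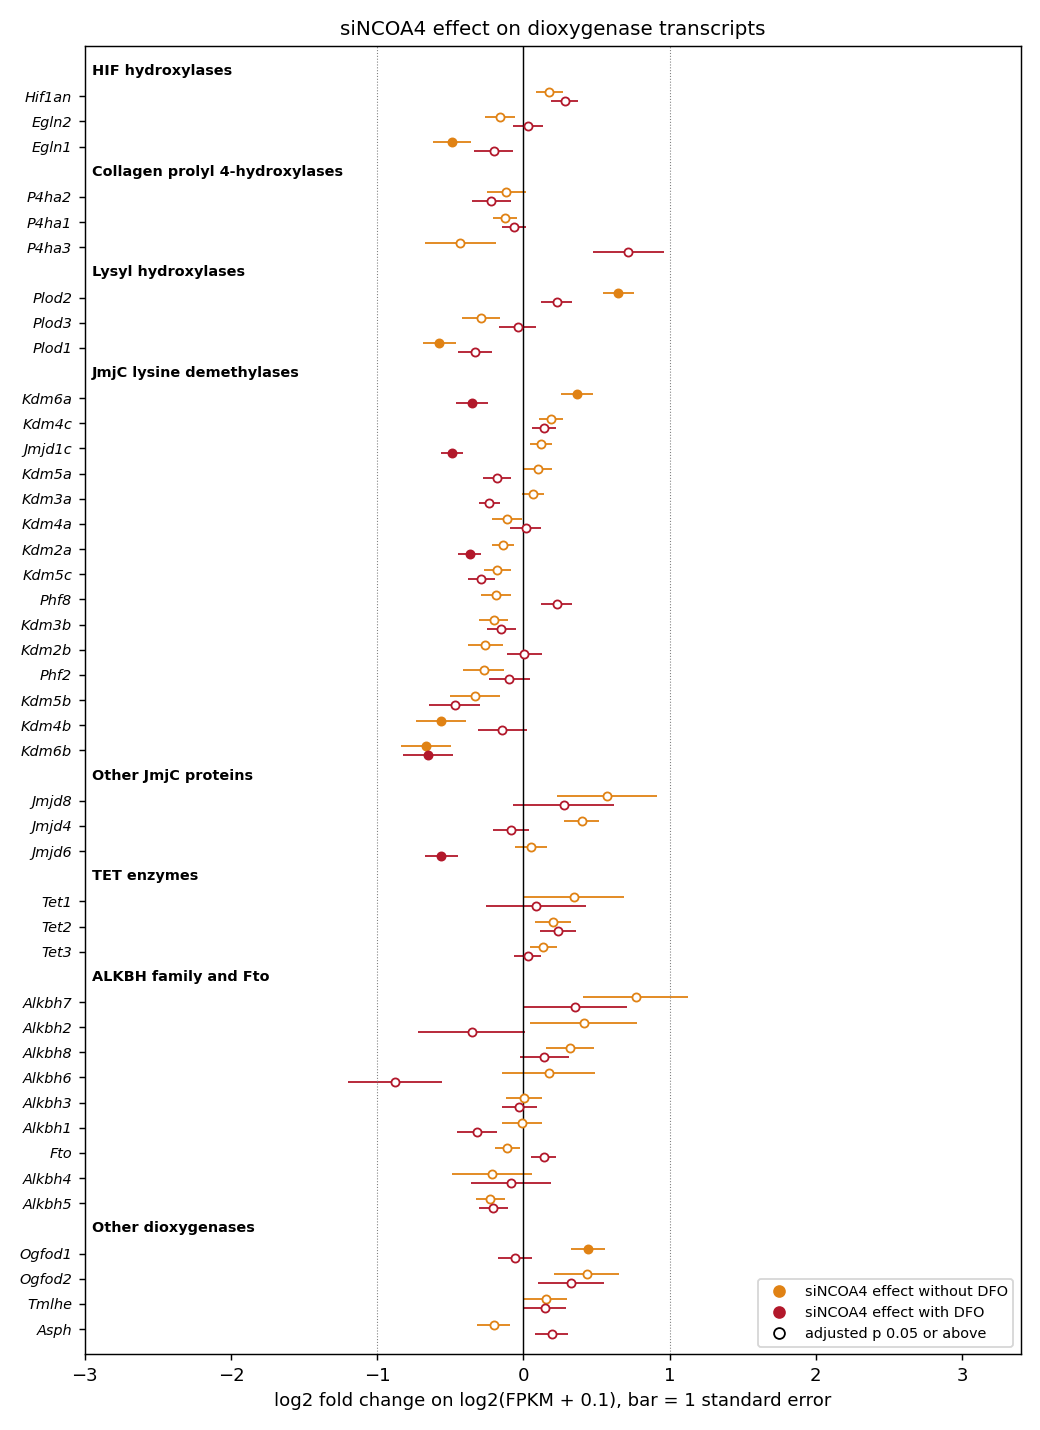
Log2 fold change with siNCOA4 for the 43 tested members, grouped by family, at normal iron (orange) and with DFO (red). Bars are 1 standard error, open circles mark an adjusted p of 0.05 or above and dotted lines mark 2-fold. Few circles are filled, and Kdm6a lies right of 0 at normal iron and left of 0 with DFO.

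The siNCOA4 effects at normal iron and with DFO share no library. Their log2 changes had the same sign in 26 of 43 members (60.5%), against 62.3% of all genes, and correlated at r = 0.271 across members and 0.224 across all genes. Past the test in both were 2 members (4.65%), against 5.06% of all genes. These were Kdm6b, lower in both, and Kdm6a, higher at normal iron and lower with DFO.

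Whether the DFO effect differed between siNCOA4 and siControl cells was tested as an interaction. Of 43 members, 2 passed (4.65%), against 2.1% of all genes tested, and 11 (25.6%) had an unadjusted p below 0.05, against 18.2% of all genes. The DFO effect on Jmjd1c was smaller in siNCOA4 cells by 0.61 log2 units (standard error 0.10, limma adjusted p = 0.0158), a call that stayed when any 1 library was left out (at most 0.046). The DFO effect on Kdm6a was smaller by 0.72 log2 units (standard error 0.15, limma adjusted p = 0.0365). This call was lost without any of the siControl libraries, siNCOA4 replicates 1 or 2, siControl+DFO replicates 1, 2 or 3 or siNCOA4+DFO replicates 2 or 3 (at most 0.0832). Jmjd6 had a difference as large, -0.61, with a limma adjusted p of 0.065, and passed only without siNCOA4+DFO replicate 1. The count was 1 without any of 9 libraries and 3 at most.

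Both treatments together, siNCOA4+DFO against siControl, raised 20 of 43 members (46.5%) and lowered 5 (11.6%), against 25.4% and 23.4% of all genes. Past 2-fold, 6 rose (14%) and 1 fell (2.33%), against 9.24% and 5.93% of all genes. This comparison shares its siControl libraries with the comparisons of siNCOA4 and of DFO alone. The 6 were P4ha2, Plod2, Kdm3a, Jmjd1c, Kdm6b and Jmjd6, and the 1 was P4ha3. Plod2 was 8.10-fold higher (log2 3.02, limma adjusted p = 2.32e-09) and Kdm3a 3.00-fold higher (log2 1.59, limma adjusted p = 1.93e-08). Tet2 was 1.75-fold higher (log2 0.81, limma adjusted p = 0.000183) and Fto fell by 0.61 log2 units (limma adjusted p = 9.06e-05). The lower count was 3 without siControl replicate 1.

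The newer symbols of the 4 absent members were looked up separately and not counted above. Kdm7a, the demethylase once named Jhdm1d, was at 2.95, 2.61 and 2.67 FPKM in siControl and at 7.36, 7.57 and 7.88 in siControl+DFO. It was at 2.95, 3.39 and 2.75 in siNCOA4 and at 4.94, 5.05 and 4.30 in siNCOA4+DFO. The 2 DFO groups did not overlap. Kdm7a rose 2.71-fold with DFO in siControl cells (log2 1.44, limma adjusted p = 3.56e-06) and 1.56-fold in siNCOA4 cells (log2 0.64, limma adjusted p = 0.0028), an interaction of -0.80 (limma adjusted p = 0.0588). The collagen prolyl 3-hydroxylase genes P3h1 and P3h3 did not pass with DFO in siControl cells (log2 -0.11 and -0.18, limma adjusted p = 0.483 and 0.264), and P3h2 was below the filter.

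Genes that share pathways with the dioxygenases were read from lists. Of all genes tested, 27.7% rose and 25.7% fell with DFO in siControl cells, and 23.1% and 19.6% in siNCOA4 cells. With siNCOA4, 4.52% were higher and 7.21% lower at normal iron, and 6.22% and 10.2% with DFO. A first list held 8 tested genes of further 2-oxoglutarate dioxygenases and related proteins, such as Mina, Tyw5 and the JmjC protein Jarid2. Of these, 0 passed with DFO by limma in either background, and 0 had an unadjusted p below 0.05. Its 3 largest log2 changes in siControl cells were -1.08 in Phyhd1, -0.51 in Jmjd7 and 0.29 in Tyw5. Of 13 tested genes for HIF subunits, VHL and HIF targets, 11 rose and 1 fell in siControl cells, with a median log2 change of 1.14, and 10 rose and 1 fell in siNCOA4 cells. Ndrg1, a stress-responsive gene, rose by 3.16 log2 units in siControl cells (limma adjusted p = 1.24e-08), Vegfa, which encodes the angiogenic growth factor, by 2.11 (limma adjusted p = 7e-09) and Slc2a1, the glucose transporter GLUT1, by 2.07 (limma adjusted p = 6.37e-08). The gene that fell was Arnt, the constitutive partner of HIF alpha subunits, at -0.48 (limma adjusted p = 0.000824). In siNCOA4 against siControl 0 of these 13 rose and 6 fell, with a median log2 change of -0.34, and with DFO present 0 rose and 4 fell, with a median of -0.31. After rescaling without small RNA genes 2 and 3 of them fell.

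Enzymes and transporters that supply or use 2-oxoglutarate, succinate and ascorbate went mostly down. Of 19 tested, 3 rose and 11 fell with DFO in siControl cells (median log2 -0.31), where 27.7% of all genes rose and 25.7% fell. In siNCOA4 cells 3 rose and 12 fell (median -0.29), where 23.1% and 19.6% of all genes did. Idh1, the cytosolic source of 2-oxoglutarate, fell from 72.5 ± 3.85 to 25.7 ± 1.05 FPKM in siControl cells (log2 -1.49, limma adjusted p = 1.34e-06). Slc23a2, an ascorbate transporter, rose from 9.70 ± 0.520 to 21.1 ± 1.60 FPKM (log2 1.11, limma adjusted p = 3.71e-06). Sdhc, a membrane subunit of succinate dehydrogenase, fell by 0.99 log2 units (limma adjusted p = 0.000126).

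Collagen partners did not follow P4ha1, P4ha2 and Plod2 as a group. Of 9 tested, 2 rose and 6 fell with DFO in siControl cells, with a median log2 change of -0.56, and 2 rose and 5 fell in siNCOA4 cells. Beside these and the next 2 lists, DFO raised 27.7% and lowered 25.7% of all genes in siControl cells, and 23.1% and 19.6% in siNCOA4 cells. P4hb, the tetramer partner of the P4ha subunits, was higher with DFO without overlap. It ran from 417 to 445 FPKM in siControl and from 566 to 668 FPKM in siControl+DFO. In siNCOA4 it ran from 354 to 392 FPKM and in siNCOA4+DFO from 508 to 584 FPKM. Among the lysyl oxidases, which oxidise lysines for cross-linking, Loxl1 fell by 1.52 log2 units (limma adjusted p = 3.27e-06) and Lox by 1.38 (limma adjusted p = 1.55e-05), while Loxl4 rose by 1.14 (limma adjusted p = 7.36e-06). Of the 5 DNA methylation partners of TET, Tdg rose (log2 0.56, limma adjusted p = 0.0214) and Uhrf1 fell (log2 -0.41, limma adjusted p = 0.000127) in siControl cells, and Dnmt3b stood at 0.24 (limma adjusted p = 0.498). The count was 1 without siControl replicate 1 or siControl+DFO replicate 3. In siNCOA4 cells 0 of 5 passed by limma, and 0 had an unadjusted p below 0.05. Of 7 writers and readers of N6-methyladenosine, 3 rose and 0 fell in each background. The 3 largest changes in siControl cells were in the readers Ythdc1 (log2 1.25, limma adjusted p = 1.12e-07), Ythdf3 (0.81, limma adjusted p = 2.61e-06) and Ythdf2 (0.51, limma adjusted p = 0.000454).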

How the data were processed

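Total RNA of HT22 cells in 12 libraries was sequenced from libraries made with a low-input kit that keeps strand. The authors deposited FPKM per gene, 1 table per library. The submitters' processing notes name Trimmomatic 0.33, FastQC, HISAT2 2.1.0, featureCounts, edgeR and mm10, and which step made the FPKM and whether strand was used in counting are not given in the sources used here. Overlapping genes may therefore share reads. Of 24347 entries, 4 that shared a name were dropped. Groups came from the sample labels.

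The filter was an FPKM of 0.5 or more in 3 or more libraries, which 11924 genes passed. On log2(FPKM + 0.1), 1 mean per group was fitted to the 12 libraries together with limma 3.58.1 (R 4.3.3), moderated with a mean-variance trend (8 residual and a median of 4.07 prior degrees of freedom). Benjamini-Hochberg adjustment ran over the genes of each comparison, and called genes had an adjusted p below 0.05. The study's own rule also asks for a fold change above 2. The interaction is the DFO effect in siNCOA4 cells minus that in siControl cells. The fit was also run on simulated data, with normal noise at its own fitted spread and a small share of genes changed in a single group. Such data meet the model by construction and do not test the scaling of FPKM.

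FPKM give no counting interval. Relative depth came from the steps between values below 0.3 FPKM, with siControl replicate 1 set to 1, and ran from 0.928 to 1.41. With 3 libraries against 3, an exact permutation test of a single gene cannot go below p = 0.1, so none is given. Replicate numbers recur in every group, but same-numbered libraries did not deviate together (r from -0.127 to 0.116 over 18 pairs, against -0.174 to 0.162 for different numbers), and no block was used. Members, lists and tests were chosen with earlier results of these data known. Every member is named. Those past 2-fold in a pairwise comparison or past the interaction test, and all HIF hydroxylases and TET enzymes that passed the filter, are given in every library. Of each pathway list the 3 genes with the largest absolute DFO change in siControl cells are named. Jarid2, Mina, Arnt, P4hb and the cell type markers are named as examples chosen after their values were seen. Promoter windows came from RefSeq (GRCm38.p6), without those on chromosome 18. Protein sequences were not used here. Alternatives were pseudocounts of 1 and 0.01, no filter or a stricter one at 2 FPKM, scaling by median of ratios or by quantiles, rescaling without 1315 small RNA genes, the replicate block, other moderation, the compared groups alone, and each library left out. Figures were drawn with matplotlib 3.10.9 (Python 3.11.15, numpy 2.4.6, pandas 2.3.3).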

Additional observations from a re-analysis of the deposited data

Results flagged for a closer look

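The difference in DFO effect between the siRNA groups passed its own test for 2 members, and for Kdm6a that call depended on single libraries. For Jmjd1c the DFO effect in siNCOA4 cells minus that in siControl cells was -0.61 on the log2 scale (limma adjusted p = 0.0158). All 3 siNCOA4+DFO libraries, at 60.2 to 63.6 FPKM, lay below all 3 siControl+DFO libraries, at 81.7 to 93.5 FPKM. For Kdm6a the difference was -0.72 (limma adjusted p = 0.0365), with 12.6 to 14.4 FPKM in siNCOA4+DFO and 15.9 to 18.1 FPKM in siControl+DFO. At normal iron the order of Kdm6a was the reverse, with 8.41 to 10.8 FPKM in siNCOA4 and 7.14 to 7.41 FPKM in siControl. These ranges are the values the test itself used and add no separate evidence. The limma adjusted p of the Kdm6a difference ran from 0.0308 to 0.0617 over the alternatives that kept all libraries, and that of the Jmjd1c difference from 0.0132 to 0.0396. The Kdm6a call was lost with quantile scaling, the small RNA rescaling and the replicate block. It was also lost in most of the fits that left out a single library, whereas the Jmjd1c call stayed in all of them. No cause was tested.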

How the results depend on the processing

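The DFO counts of members stayed within 1.5 times of the reported ones under the alternatives that kept all libraries: 21 to 23 higher and 5 to 6 lower in siControl cells, and 21 to 22 higher and 4 to 6 lower in siNCOA4 cells. Of the single-gene results under alternatives, 2531 kept direction and side of the threshold, 179 lost the call, 46 gained one and 0 reversed. The siNCOA4 counts moved. At normal iron the 3 higher members became 1 with only the groups compared. The 4 lower became 2 with no filter, quantile scaling, rescaling without small RNA genes or moderation without a trend, and 1 with only the groups compared. With DFO the 0 higher became 1 with an FPKM of at least 2, 2 with quantile scaling and 4 with the small RNA rescaling, which also took the 5 lower to 2. The interaction count of 2 became 1 with quantile scaling, the small RNA rescaling or the replicate block, which moved no other count of calls by over 1.5 times. The cause of these moves was not tested. Rescaling without small RNA genes shifted the median of all genes by 0.13 log2 units in siNCOA4+DFO against siControl+DFO and by at most 0.09 in the other comparisons. Omitting each library in turn gave 1 to 3 higher and 1 to 5 lower for siNCOA4 at normal iron, 20 to 23 and 4 to 6 for DFO in siControl cells, and 19 to 22 and 4 to 5 for DFO in siNCOA4 cells. It gave 0 to 2 higher, 3 to 6 lower and 0 to 1 past 2-fold for siNCOA4 with DFO, 18 to 21 higher and 3 to 7 lower for both treatments, 1 to 3 for the interaction, and 1 to 2 DNA methylation genes. The interaction uses all 4 groups, so a fit of only the groups compared gives it no separate value. FPKM keep no counts, so no limit of detection can be given for members listed at 0.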
